A study of Mus musculus with 27 samples.

Results

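Hindlimb bud mesenchyme made from mouse ES cells was compared with the hindlimb bud of the E10.5 embryo. The comparison used 5 of the 27 RNA-seq libraries of the series, 3 libraries of ES–HLB and 2 of the E10.5 HLB, and was chosen by the sample labels alone. ES–HLB cells carried the genotype EB5 Hand2::GFP +/-, in which a fluorescent protein marks cells that use Hand2, a transcription factor gene of limb bud mesenchyme. They were ES cells kept in LIF and 2i, then grown as aggregates with BMP4 and matrigel, an antagonist of retinoic acid, the BMP inhibitor LDN193189 and Wnt3, with hydrocortisone in the medium per the methods, and were trypsinised and FACS-sorted for GFP on day 9. The E10.5 HLB libraries came from amputated hindlimb buds of Slc:ICR embryos with no treatment, and no sorting of them is named, so they hold ectoderm, vessels and blood beside mesenchyme. The ES–HLB libraries come from 1 ES cell line. Strain, sorting, dissociation, culture and the sex of the cells all differ between the groups in the same way as origin does, so that their parts in any difference cannot be told apart. Replicate 2 of the E10.5 HLB was left out, as it listed 0 for 3932 of the 3942 genes that replicates 1 and 3 had above 2 CPM on chromosomes 5 to 9, X and Y and the distal end of 4. Nothing in the labels says whether replicates were separate cultures or embryos, and p-values then measure only the spread between these libraries.

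A limb bud grows out as a core of mesenchyme under ectoderm. The ectodermal rim, the apical ridge, sends FGFs to the mesenchyme, the posterior mesenchyme sends Shh, the dorsal ectoderm sends Wnt7a, and retinoic acid and its removal set a proximal to distal axis. Tbx4 and Pitx1 mark the hindlimb, Tbx5 marks the forelimb, and genes at the 5′ end of the Hoxa and Hoxd clusters are used in the distal limb. Tendon, ligament and other fibrous tissue, with their collagens and small proteoglycans, form from this mesenchyme at later stages.

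Depth was 5648234 to 7879877 reads on genes per library, so that a count of 0 allowed up to 0.381 to 0.531 CPM (3 reads, counting error only). Libraries of 1 group had a Pearson r of 0.992 to 0.994 over 13439 genes, and libraries of different groups 0.901 to 0.907. Values below are CPM (reads of a gene per 1000000 reads on all genes) scaled between libraries, and differences are log2(CPM + 0.5) in ES–HLB minus that in the E10.5 HLB, with the standard error. A gene is called higher or lower, and said to have risen or fallen, where limma gave an adjusted p below 0.05 and the difference was at least 2-fold. Of 13334 genes tested, 1912 were higher in ES–HLB (14.3%) and 896 were lower (6.72%), and the median difference was −0.02. Without scaling, with CPM as deposited, 2307 were higher and 686 lower, which moved the higher share of calls from 68.1% to 77.1% and the median by 0.15. In these bulk samples fewer cells of a type and less RNA per cell cannot be told apart.

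Hindlimb identity genes were present in ES–HLB at a part of their embryonic level. Tbx4, a T-box factor of hindlimb outgrowth, was at 60.2, 57.4 and 47.9 CPM in the 3 ES–HLB libraries and at 170 and 171 CPM in the 2 E10.5 HLB libraries (−1.62 ± 0.08, adjusted p = 8.9e-19). Pitx1, a homeobox factor upstream of Tbx4, was at 72.2, 64.1 and 69.5 CPM against 233 and 243 CPM (−1.79 ± 0.06, adjusted p = 3.4e-23). The groups did not overlap for either gene. Hoxc10, a homeobox gene of the hindlimb level of the trunk, was at 27.7, 23.1 and 23.7 CPM against 133 and 139 CPM (−2.43 ± 0.09, adjusted p = 3.6e-23). Hoxc9 fell too (−1.29 ± 0.16), as did Hoxc11 (−1.11 ± 0.19), which without ES–HLB replicate 2 was at −0.95 and no longer called. Isl1, a LIM homeobox gene that acts early in the hindlimb field, had the opposite order, with 30.1, 31.1 and 29.1 CPM against 16.1 and 13.8 CPM, and at 0.99 ± 0.11 lay just inside the 2-fold limit and was not called.

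Genes of the forelimb level were low in both groups. Tbx5, the forelimb T-box gene, was at 3.99, 2.23 and 3.05 CPM in ES–HLB and at 0.183 and 0.177 CPM in the E10.5 HLB, the latter under the floor of 3 reads (2.37 ± 0.31, adjusted p = 2.1e-08). For scale, Tbx5 had a mean of 161 ± 8.36 CPM (SD, n = 3) in the E10.5 forelimb bud. Hoxc5 was at 7.48, 8.78 and 7.62 CPM against 3.3 and 3.37 CPM (1.14 ± 0.20), and overlaps Hoxc6, Hoxc8, Hoxc9 and Hoxc10 on the same strand in the annotation, so that its reads could be split among them. Hoxc4 did not pass the fold limit (0.59 ± 0.22). Over the 9 limb type genes, 2 were higher (22.2% beside 14.3% over all genes tested) and 5 lower (55.6% beside 6.72%). Their median was −1.11 beside −0.02 over all genes tested.

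Whether these differences depend on limb type was tested against the forelimb, as the ES–HLB difference from the E10.5 HLB minus the ES–FLB difference from the E10.5 FLB, which share no library. Of the 9 limb type genes, 6 passed an adjusted p below 0.05, beside 19.8% of the 13832 genes tested. The 9 genes were listed as markers of 1 limb type, and some are near 0 in the embryonic bud of the other. There the ES-derived cells can hardly be lower than the embryo, so that a dependence on limb type is partly built in. Pitx1 had the largest value of the 9, −4.31 ± 0.19 (adjusted p = 3.8e-19), being lower than the embryo in ES–HLB and higher than it in ES–FLB, where it was at 7.25 ± 1.43 CPM against 0.846 ± 0.181 CPM (SD, n = 3 each). Tbx5 had a value of 3.58 ± 0.19, with 69.3 ± 3.01 CPM in ES–FLB against 161 ± 8.36 CPM in its embryonic counterpart. For Tbx4 no dependence on limb type was detectable (0.35 ± 0.52, adjusted p = 0.7), and the ES-derived cells were below the embryo in both limb types.

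**Figure D1:**
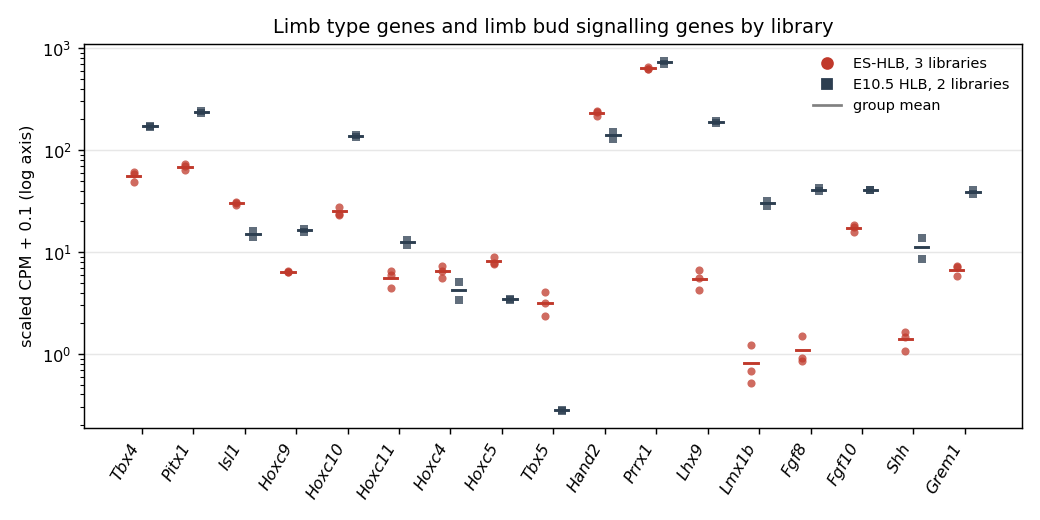
Scaled CPM + 0.1 on a log axis for limb type genes, mesenchyme factors and limb bud signals in each of the 3 ES–HLB libraries (red circles) and 2 E10.5 HLB libraries (dark squares), with group means as lines. Tbx4, Pitx1 and Hoxc10 sit below the embryo in every ES–HLB library, and the gap is wider for Lhx9, Lmx1b and Fgf8.

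Hox genes divided by their position in the clusters. Of 35 Hox genes tested, 5 were higher (14.3%, the same share as over all genes tested). Another 18 were lower (51.4% beside 6.72% over all genes tested). All 5 Hoxd genes of paralogue groups 9 to 13 fell, by 2.61 to 3.37 on the log2 scale. Hoxd10 was at 3.87, 5.85 and 5.04 CPM against 56.2 and 53.5 CPM (−3.37 ± 0.15, adjusted p = 3.3e-20), and Hoxd9 at 5.74, 6.13 and 4.1 CPM against 54.2 and 55.8 CPM (−3.27 ± 0.15). Hoxd13, used in the distal limb and digits, had a mean of 12.0 CPM (n = 3) against 77.3 and 73.2 CPM, and was picked for display after its values were seen. Each was separated from the embryo in all libraries.

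Genes at the other end of the clusters moved in both directions. Hoxb4 was at 11.8, 12.7 and 11.1 CPM against 0.916 and 2.48 CPM (2.59 ± 0.24, adjusted p = 5.3e-11), Hoxa2 at 22.8, 21.6 and 22.1 CPM against 3.3 and 4.07 CPM (2.44 ± 0.16), and Hoxb2 and Hoxb3 rose by 1.96 and 1.74. Among the 21 tested genes of paralogue groups 1 to 8, 5 were higher, 6 lower and the median was −0.11. Among the 14 of groups 9 to 13, 0 were higher and 12 lower by limma, with a median of −1.64, and at an unadjusted p below 0.05 again 0 were above the embryo. Hoxa9 was not called, with 34.3, 37.8 and 27.5 CPM against 49.3 and 42.3 CPM. The division at group 9 was made after the values were seen.

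**Figure D2:**
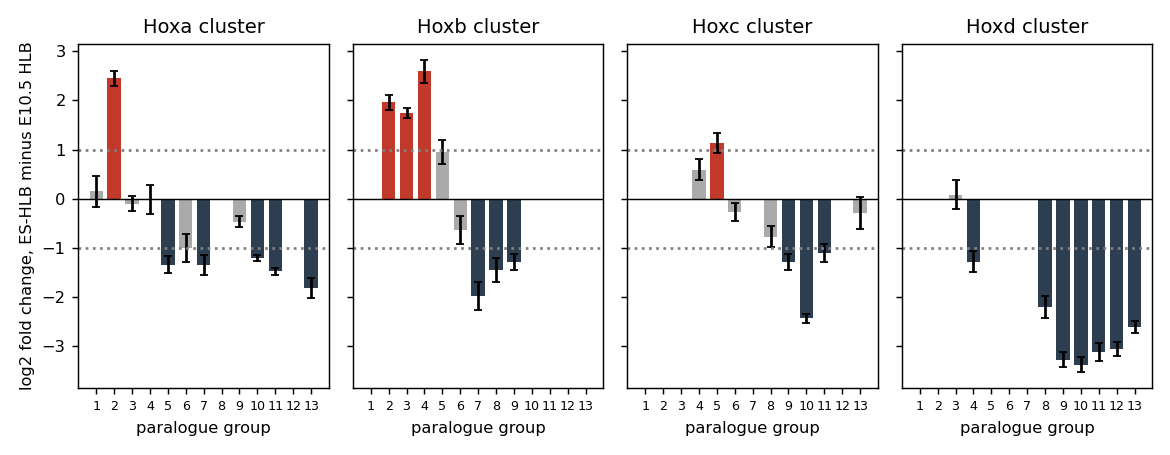
Log2 difference of each tested Hox gene, ES–HLB minus E10.5 HLB, by paralogue group in the 4 clusters, with standard errors; red bars are called higher, dark bars called lower, grey bars neither, and dotted lines mark 2-fold. Bars of the Hoxd cluster from group 8 on lie at or below −2.20, and the red bars lie in groups 2 to 5.

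Mesenchymal transcription factors moved in both directions. Of 46 tested, 10 were higher (21.7% beside 14.3% over all genes tested), 12 lower (26.1% beside 6.72%) and 24 not called. Prrx1, which marks limb and body wall mesenchyme, was at 628, 646 and 618 CPM against 738 and 704 CPM (−0.19 ± 0.04) and was not called, so that this defining marker of the labelled tissue was present in every library. Hand2 was at 240, 218 and 236 CPM against 129 and 149 CPM (0.73 ± 0.06, not called). The cells were sorted on a Hand2 reporter, and Hand2 lies on chromosome 8 (see the chromosome values below), so that its level is no independent check of the label.

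The largest falls of the list were in LIM homeobox genes. Lhx9, which acts in distal mesenchyme, was at 6.61, 5.44 and 4.1 CPM against 194 and 185 CPM (−5.04 ± 0.14, adjusted p = 2.5e-22). Lmx1b, which gives dorsal mesenchyme its identity downstream of Wnt7a, was at 1.12, 0.418 and 0.586 CPM against 28.4 and 31.2 CPM (−4.69 ± 0.25). Both were far below the embryo in all 3 libraries. Emx2 fell by 4.04, Sall3 by 3.40 and Lhx2, picked after its values were seen, by 3.27. Hand1, Tbx2 and Osr1 were among the members that rose. Tbx2, a T-box repressor of the limb margins, was at 288, 292 and 298 CPM against 45.2 and 47.1 CPM (2.65 ± 0.06, adjusted p = 6.7e-30), and Osr1 at 50, 51.1 and 57.2 CPM against 12.8 and 12.9 CPM (1.99 ± 0.10).

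Signals of the ridge and the dorsal ectoderm were at or near 0 in ES–HLB. Fgf8, the main FGF of the apical ridge, was at 0.748, 1.39 and 0.82 CPM against 42.1 and 39.3 CPM (−4.82 ± 0.22, adjusted p = 3.2e-20). Wnt7a, the dorsal ectoderm ligand, was at 0.374, 0 and 0.234 CPM against 13.9 and 10.1 CPM (−4.17 ± 0.30). These genes are made by ectoderm, the ES–HLB cells were sorted for Hand2::GFP and the buds were whole, and the part of the sort in the difference was not tested. Wnt6 fell by 3.25, Wnt3 by 2.64 and Rspo4, a secreted enhancer of Wnt signalling, by 4.20.

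Of the mesenchymal signals named by rule, Fgf10, Shh and Grem1 were also lower. Fgf10, the mesenchymal FGF that induces the ridge, was at 15.7, 17.3 and 18.3 CPM against 40.8 and 40 CPM (−1.22 ± 0.11, adjusted p = 6.5e-12). Shh, the posterior signal, was at 1.37, 0.976 and 1.52 CPM against 13.7 and 8.5 CPM (−2.67 ± 0.25), and Grem1, the BMP antagonist that links Shh to the ridge, at 7.11, 6.97 and 5.74 CPM against 40.7 and 37 CPM (−2.47 ± 0.14). Among 13 Hedgehog genes 2 were higher, Hhip (1.30) and Boc (1.12), and Shh alone was lower, shares of 15.4% and 7.69% that are near the 14.3% and 6.72% over all genes tested. Of 19 genes in the FGF list 1 was higher and 2 lower, and Fgf15, a ligand outside that list, was among the 10 largest rises over all genes (5.51). Fgfr1 was at 495, 514 and 513 CPM against 332 and 354 CPM (0.57 ± 0.04, not called).

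Other members of the BMP and Wnt lists moved in both directions. Fst, which binds activin and BMPs, was at 15.2, 19 and 19.2 CPM against 0.916 and 0.531 CPM (3.91 ± 0.21, adjusted p = 3e-18), and Dkk2, a secreted modulator of Wnt signalling, at 69.5, 62 and 71.7 CPM against 6.04 and 6.73 CPM (3.31 ± 0.11). Chrd, Id4 and Bmp2 rose by 1.77 to 2.07, while Chrdl1, a BMP antagonist related to Chrd, fell by 1.22. In the Wnt list, Wnt11, Sp5 and Notum rose by 1.70 to 2.18. In all, 8 of 26 BMP genes were higher (30.8%) and 3 lower (11.5%), and 10 of 29 Wnt genes were higher (34.5%) and 6 lower (20.7%). Over all genes tested the shares were 14.3% and 6.72%. Wnt5a, a mesenchymal ligand of outgrowth, was not called (0.22 ± 0.06).

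Of 17 retinoic acid genes, 5 were higher (29.4% beside 14.3% over all genes tested) and 3 lower (17.6% beside 6.72%). Cyp26b1, the enzyme that clears retinoic acid from the distal limb, was at 28.4, 33.6 and 30.5 CPM against 169 and 173 CPM (−2.45 ± 0.08, adjusted p = 1.7e-24), Crabp2, a retinoic acid carrier, fell by 2.46 and Rarb, a receptor and target, by 2.18. Rdh10, which makes the precursor, rose from 15.9 CPM in both embryonic libraries to 46.9 to 52.1 CPM (1.61 ± 0.10). Aldh1a3, a synthesis enzyme, was at 7.61, 9.34 and 8.67 CPM against 0 and 0.709 CPM.

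Genes of fibrous connective tissue were higher in ES–HLB across most of their list. Of 40 tendon and connective tissue genes tested, 33 were higher in ES–HLB and 1, Fbln5, was lower, with a median difference of 2.30, beside 14.3% higher over all genes. Lum, a small collagen-binding proteoglycan, was at 323, 313 and 352 CPM against 4.21 and 3.19 CPM (6.31 ± 0.09, adjusted p = 1.3e-34). Dcn, a related proteoglycan, was at 88.4, 78 and 88.4 CPM against 0.733 and 0.531 CPM (6.24 ± 0.14). Col6a1, a chain of collagen VI, was at 394, 358 and 391 CPM against 5.49 and 5.67 CPM (5.97 ± 0.07), and Col6a3 at 364, 379 and 375 CPM against 7.69 and 7.62 CPM. Tnc, a matrix glycoprotein of tendon and perichondrium, was at 169, 175 and 181 CPM against 3.66 and 3.19 CPM (5.48 ± 0.09), and Col12a1 rose by 2.96. Every library of ES–HLB was above both embryonic libraries for these 6 genes.

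Scx, the transcription factor of tendon progenitors, was at 12.7, 12.3 and 12.7 CPM against 23.6 and 21.1 CPM (−0.81 ± 0.13, not called), and overlaps Bop1 on the other strand. Egr1, which is both a tendon regulator and an immediate early gene, was at 384, 449 and 489 CPM against 3.11 and 2.13 CPM (7.15 ± 0.15, adjusted p = 1.4e-10). Of the 40 genes, 36 were also above the mean of the early HLB libraries, and 1 was below both stages. That position was not counted over all genes tested, and the early HLB libraries were deeper (see the depths given below). Pdgfra, a receptor of fibroblast precursors, was at 541, 529 and 561 CPM against 275 and 311 CPM (0.89 ± 0.05, not called).

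Among 21 cartilage and bone genes, 8 were higher (38.1% beside 14.3% over all genes tested) and 2 lower (9.52% beside 6.72%). Sox9, the master factor of chondrogenesis, was at 59, 64.2 and 71.4 CPM against 74.4 and 87.9 CPM (−0.32 ± 0.08, not called), and its target Col2a1 at 188, 178 and 202 CPM against 177 and 202 CPM (adjusted p = 1, with a standard error of 0.06). Runx1 and Runx2 rose by 3.97 and 3.06, Runx2 from 1.83 and 2.3 CPM to between 18.2 and 23.1 CPM. Hapln1, a link protein of cartilage matrix, was at 7.48, 9.48 and 7.38 CPM against 60.1 and 53.3 CPM (−2.74 ± 0.13).

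**Figure D3:**
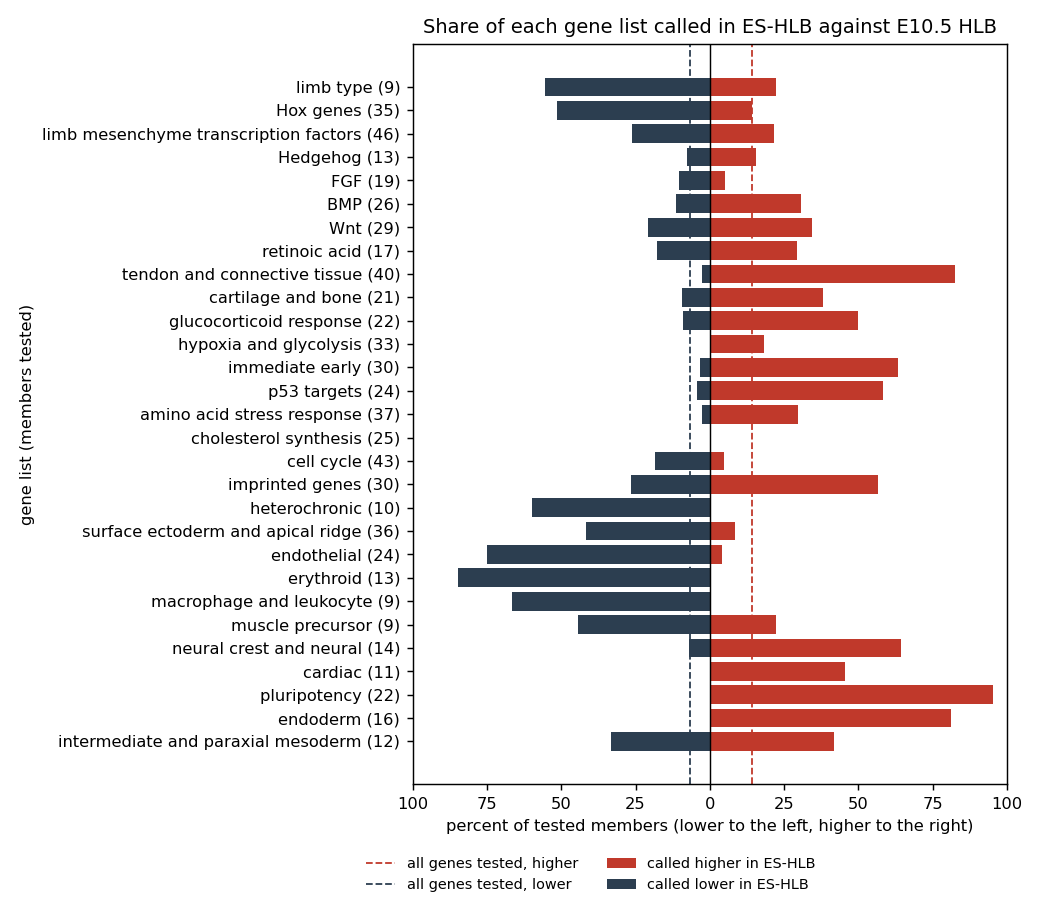
Percent of the tested members of each gene list that were called higher (red, to the right) or lower (dark, to the left) in ES–HLB against the E10.5 HLB, with the number tested in brackets and dashed lines at the shares over all genes tested (14.3% and 6.72%). Pluripotency, tendon and endoderm lists extend farthest to the right, erythroid and endothelial lists farthest to the left, and cholesterol synthesis has no called member.

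Immediate early genes, which cells switch on within minutes of stimulation or handling, were higher in ES–HLB for 19 of 30 tested, with a median of 1.79. The higher share was 63.3% beside 14.3% over all genes tested. Of the same 30 genes, 1 (Dusp2) was lower. Fos was at 73.8, 105 and 109 CPM against 4.58 and 0.709 CPM (5.26 ± 0.78, adjusted p = 0.009). Its difference was 6.30 without E10.5 HLB replicate 1 and 4.22 without replicate 3, called in both. Egr2 was at 8.6, 9.89 and 10.1 CPM against 0.183 and 0 CPM (4.10 ± 0.26), and Zfp36, which encodes a factor that destabilises mRNAs and was picked after its values were seen, at 34, 33.7 and 38.3 CPM against 7.88 and 5.14 CPM (2.38). Jund was not called, with 155, 139 and 151 CPM against 150 and 162 CPM. ES–HLB cells were trypsinised and sorted before lysis and the buds were not, and the part of this handling in the rise was not tested.

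Promoters of these genes often hold a CArG box, the site of serum response factor, and the windows of Zfp36 and Egr2 are shown because they hold one. Windows are 250 bases before to 50 after a RefSeq start (GRCm38.p6), given 5′ to 3′ on the strand of the gene, with the box in capitals. The motif searched was the CArG box by its usual form, on both strands, and 1.63% of 32851 windows hold it. Of the 19 genes called higher, 14 had a window and 2 of these held the box in at least 1 window. That count is per gene and the 1.63% is per window, so that they are not alike. Zfp36 lies at chr7:28379179-28379478 on the minus strand, and the Egr2 window, 1 of 5 starts of that gene, at chr10:67537316-67537615 on the plus strand.
Zfp36: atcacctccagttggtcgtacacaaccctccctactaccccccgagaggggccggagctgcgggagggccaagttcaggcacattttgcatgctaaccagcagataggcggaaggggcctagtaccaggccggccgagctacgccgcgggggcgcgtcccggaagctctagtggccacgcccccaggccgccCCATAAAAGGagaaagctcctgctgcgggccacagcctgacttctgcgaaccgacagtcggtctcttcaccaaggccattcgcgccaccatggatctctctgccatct
Egr2: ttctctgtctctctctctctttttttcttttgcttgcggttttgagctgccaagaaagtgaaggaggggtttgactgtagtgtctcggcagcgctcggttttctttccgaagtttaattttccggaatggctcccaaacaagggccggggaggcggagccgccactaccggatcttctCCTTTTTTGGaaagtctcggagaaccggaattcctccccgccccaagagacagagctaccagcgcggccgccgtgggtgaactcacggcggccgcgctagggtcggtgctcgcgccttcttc
A match is a description of letters and not evidence that the factor was bound.

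Genes of the glucocorticoid response were of interest as hydrocortisone was in the culture, and they did not all move the same way. Of 22 tested, 11 were higher and 2 lower. Fkbp5, a widely used indicator of receptor activity, was at 69.6, 64 and 69.1 CPM against 144 and 129 CPM (−1.01 ± 0.07), which is at the fold limit and was not called with CPM as deposited (−0.86). Tsc22d3, another indicator, was at 39.8, 35.5 and 39.4 CPM against 55.1 and 57.8 CPM (−0.56 ± 0.09, not called). Nr3c1, the receptor gene itself, was at 32.4, 28.7 and 36.7 CPM against 4.76 and 5.31 CPM (2.57 ± 0.14, adjusted p = 2.9e-18).

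The metallothionein genes Mt1 and Mt2, which bind metals and respond to them and to glucocorticoids, gave the largest rises of that list and are neighbours on chromosome 8. Mt1 was at 45.8, 54.9 and 57.3 CPM against 8.61 and 7.26 CPM (2.65 ± 0.12, adjusted p = 1.2e-20), and Mt2 at 42.9, 55.7 and 50.9 CPM against 8.24 and 6.91 CPM (2.64 ± 0.12). Their windows are shown because both hold several cores of the metal response element, searched as TGCACNC and TGCGCNC on both strands and set in capitals. The Mt1 window, chr8:94178839-94179138, holds 3 cores and the Mt2 window, chr8:94172368-94172667, holds 4, both on the plus strand. At least 1 core is in 25.7% of all windows and 3 or more in 1.97%.
Mt1: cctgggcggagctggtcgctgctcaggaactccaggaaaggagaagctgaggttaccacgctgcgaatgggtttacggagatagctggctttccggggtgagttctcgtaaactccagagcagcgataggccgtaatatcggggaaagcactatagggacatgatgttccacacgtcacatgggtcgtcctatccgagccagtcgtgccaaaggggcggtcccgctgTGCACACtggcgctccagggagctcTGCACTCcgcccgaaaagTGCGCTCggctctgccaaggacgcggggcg
Mt2: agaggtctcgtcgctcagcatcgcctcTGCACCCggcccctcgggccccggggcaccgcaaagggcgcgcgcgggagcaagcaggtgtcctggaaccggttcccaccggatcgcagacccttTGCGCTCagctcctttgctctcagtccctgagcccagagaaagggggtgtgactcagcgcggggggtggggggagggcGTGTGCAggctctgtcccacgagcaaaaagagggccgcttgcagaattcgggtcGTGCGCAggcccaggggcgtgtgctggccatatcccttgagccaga
The Mt1 and Mt2 differences exceed the median shift of chromosome 8, which is given below.

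Targets of p53, the stress-induced brake on the cell cycle, were higher for 14 of 24 tested (58.3% beside 14.3% over all genes tested). Their median was 1.35. Cdkn1a, the cell cycle inhibitor, was at 68.7, 67.5 and 57.8 CPM against 8.24 and 8.5 CPM (2.87 ± 0.11, adjusted p = 6.4e-23). Ccng1 was at 251, 233 and 220 CPM against 39.6 and 38.4 CPM (2.57 ± 0.06), and Eda2r rose by 4.18. Pmaip1, a pro-apoptotic target, moved the other way, at 9.1, 11.1 and 10.4 CPM against 57.7 and 57.9 CPM (−2.45 ± 0.12), and Mdm2, picked after its values were seen, was not called (0.41). Cell cycle genes were lower for 8 of 43 (18.6% beside 6.72% over all genes tested) and higher for 2 (4.65% beside 14.3%), with a median of −0.68. The list also holds inhibitors of the cycle, with Cdkn1c (−1.71) among the lower members and Cdkn1a among the higher. Ccnd1 was at 118, 129 and 139 CPM against 369 and 378 CPM (−1.54 ± 0.06), Ccne1 fell by 1.66 and Rrm2 by 1.22, while Top2a was not called (−0.48). With CPM as deposited 5 cell cycle genes were lower.

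Metabolic and nutrient stress genes were tested as 3 lists. Of 33 hypoxia and glycolysis genes 6 were higher, 18.2% beside 14.3% over all genes tested, and 0 lower by limma (11 were below the embryo at an unadjusted p below 0.05). Pfkp, a glycolytic enzyme, was at 36.8, 37.2 and 37.7 CPM against 4.4 and 5.67 CPM (2.78 ± 0.13), while Ldha was at 684, 606 and 596 CPM against 1176 and 1119 CPM (−0.87 ± 0.05, not called). Of 37 genes of the amino acid stress response 11 were higher (29.7% beside 14.3%) and 1, Slc1a5, lower (2.70% beside 6.72%). Vldlr (3.60) and Slc7a3 (3.93) were among the largest rises. None of 25 cholesterol synthesis genes was called, and Hmgcs1 was at 447, 442 and 458 CPM against 503 and 470 CPM. By limma 20 of these genes had an unadjusted p below 0.05, and the largest difference was 0.95 in size.

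Imprinted genes, which are used from only 1 parental allele, held the largest single fall in the table. Grb10, an adaptor that restrains insulin and IGF signalling, was at 4.36, 4.6 and 4.8 CPM in ES–HLB against 1559 and 1606 CPM in the E10.5 HLB (−8.28 ± 0.08, adjusted p = 1.4e-40). Igf2, the main growth factor of the embryo, was at 105, 94.6 and 95.9 CPM against 3849 and 4176 CPM (−5.34 ± 0.05, adjusted p = 8.8e-42). Mest, paternally expressed like Igf2, was at 528, 485 and 496 CPM against 4043 and 3907 CPM (−2.98 ± 0.04). In all 3 genes the groups stood far apart, and replicates within a group differed by little.

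Partners within a locus moved in opposite directions at the loci given here. At the Igf2 and H19 locus, H19, a maternally expressed non-coding RNA, was at 11904, 10805 and 11663 CPM against 5708 and 5633 CPM (1.01 ± 0.03), which is at the fold limit and without ES–HLB replicate 1 was at 0.99 and not called. At the Dlk1 and Meg3 locus, Dlk1, a paternally expressed membrane protein gene, was at 23.4, 17.7 and 22 CPM against 153 and 164 CPM (−2.89 ± 0.10), and Meg3, a maternally expressed non-coding RNA, at 980, 1269 and 968 CPM against 46.9 and 50.5 CPM (4.44 ± 0.16, adjusted p = 7.2e-05). Rian, Mirg and Rtl1 of the same locus, picked after their values were seen, were at 2.84, 3.03 and −1.83. On chromosome 7, Kcnq1ot1 rose by 3.25 while Cdkn1c, which lies nearby, fell by 1.71. Kcnq1ot1 was not called without E10.5 HLB replicate 3.

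The parent of origin did not sort the whole list. Of 30 imprinted genes 17 were higher (56.7% beside 14.3% over all genes tested) and 8 lower (26.7% beside 6.72%), with a median of 1.14. Dcn is also in the tendon and connective tissue list and is counted in both. Split by the allele known to be used in most tissues, a split made after the values were seen, 7 of 9 maternally expressed genes were higher and 2, Grb10 and Cdkn1c, lower, and 9 of 19 paternally expressed genes were higher and 6 lower. Not all 30 genes were assigned to an allele in that split. Zim1, in the Peg3 locus, was at 283, 333 and 280 CPM against 27.7 and 29.8 CPM (3.35 ± 0.07). Cdkn1c, a growth inhibitor, was at 88.9, 80.3 and 92.2 CPM against 274 and 299 CPM (−1.71 ± 0.06), and Peg13, which overlaps Trappc9 on the same strand, was 9.55-fold lower. Gnas was not called, with 1415, 1283 and 1391 CPM against 1361 and 1421 CPM. Reads were not assigned to alleles here.

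**Figure D4:**
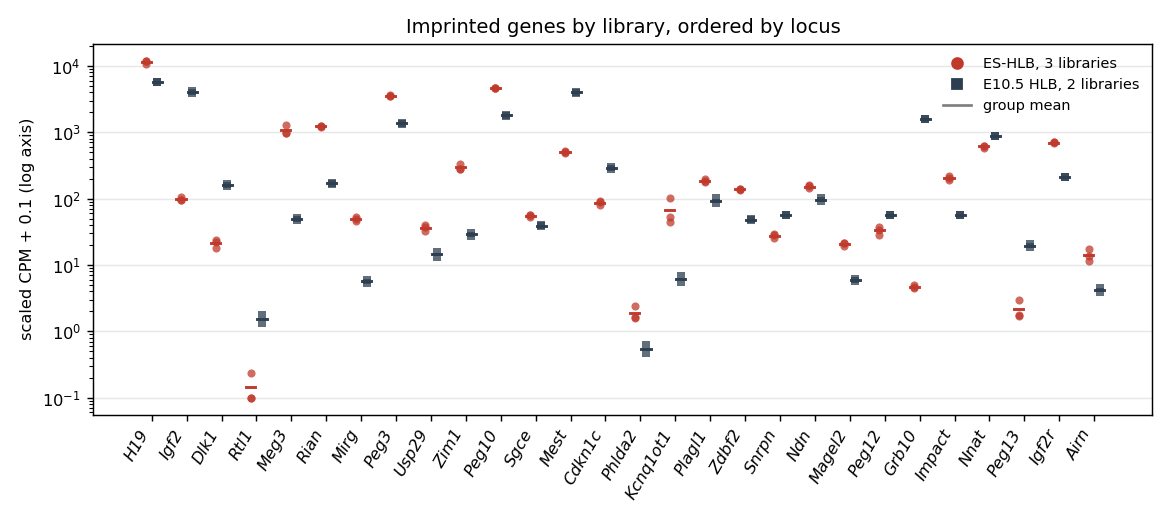
Scaled CPM + 0.1 on a log axis for 28 imprinted genes ordered by locus, in each of the 3 ES–HLB libraries (red circles) and 2 E10.5 HLB libraries (dark squares), with group means as lines. Igf2, Dlk1, Mest and Grb10 drop in every ES–HLB library, and Meg3, Rian and Zim1 sit above the embryo.

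RNA-binding and chromatin genes of early developmental timing lay below the embryo throughout, although not all by 2-fold. Of 10 heterochronic genes 6 were lower and 0 higher by limma (0 above the embryo at an unadjusted p below 0.05), with a median of −1.30. All 10 genes lay below the means of both the early and the E10.5 HLB, a position not counted over all genes tested. The early HLB libraries were deeper, as given below. Lin28a, which blocks let-7 microRNAs, was at 15.2, 17.7 and 17.3 CPM against 109 and 91.4 CPM (−2.54 ± 0.10), and Lin28b at 36.4, 42.9 and 32.1 CPM against 215 and 190 CPM (−2.44 ± 0.09). In the embryo Lin28b was at 324 CPM in the early HLB (mean, n = 3) and Lin28a at 395 CPM. Hmga2, an abundant chromatin protein gene, was at 784, 750 and 735 CPM against 1441 and 1374 CPM (−0.90 ± 0.04, not called).

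Genes of cell types outside the mesenchyme moved in 2 directions. Vessel and blood genes were low in ES–HLB. Of 24 endothelial genes 18 were lower and 1 higher, Pecam1, an adhesion molecule of vessels, was at 7.48, 7.66 and 6.91 CPM against 60.1 and 61.3 CPM (−2.96 ± 0.13), and the summed level of the list was 269.5 to 272.3 CPM against 807.2 to 852.3 CPM. Of 13 erythroid genes 11 were lower (84.6%), with sums of 234.5 to 324.7 CPM against 2964 to 4233 CPM. Hbb-y, an embryonic globin, was at 38.2, 25.6 and 21.8 CPM against 1878 and 1306 CPM. Leukocyte genes were lower for 6 of 9 (66.7%). Of 9 muscle precursor genes 4 were lower (44.4%), among them Pax3 (−2.66), a factor of migrating muscle precursors, and 2 higher (22.2%). No defining marker of the endothelial or erythroid list was at 0 in all 3 ES–HLB libraries.

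Ectoderm genes were more often lower than higher. Of 36 tested, 15 were lower (41.7% beside 6.72% over all genes tested) and 3 higher (8.33% beside 14.3%). Trp63, the master factor of stratified epithelium, was at 2.37, 4.74 and 5.04 CPM against 40.7 and 36 CPM (−3.15 ± 0.23), whereas Krt19, Krt14 and Krt15 rose by 1.22 to 2.35 and Dsp was at 88.3, 82.4 and 83.8 CPM against 44.3 and 45.5 CPM (0.91 ± 0.07, not called). Krt5 and Cdh1, picked after their values were seen, were at 60.5 to 64.9 CPM against 60.8 and 66.3 CPM, and at 39.7 to 45.7 CPM against 43.8 and 50.3 CPM. Epithelial RNA was thus present in the sorted cells, with a summed level of 477.9 to 501.6 CPM against 687.8 to 726.4 CPM, and its part in other differences was not tested.

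Pluripotency genes were higher for 21 of 22 (95.5% beside 14.3% over all genes tested), at low levels. Pou5f1, a core factor of ES cells, was at 12, 19.2 and 18.7 CPM and 0 in both embryonic libraries, at least 30.8-fold higher against the mean floor of 3 reads per library. Dppa5a was at 13, 22.4 and 18.4 CPM against 0 in both (at least 33.2-fold), and Sox2, also a neural gene, at 19.5, 24.2 and 24.7 CPM against 0 and 0.177 CPM. The list summed to 196.5 to 252.3 CPM against 15.9 to 18.6 CPM. Fgf4, which the apical ridge also makes, was the member not called.

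Endoderm genes were higher for 13 of 16 tested (81.25% beside 14.3% over all genes tested). By limma 0 were lower, with 1 below the embryo at an unadjusted p below 0.05. Apob, the lipoprotein of liver and yolk sac, was at 162, 234 and 186 CPM against 0.366 and 0.531 CPM and had the largest rise among genes with 16 CPM or more (7.67 ± 0.13, adjusted p = 1.6e-30). Ttr was at 16.7, 23.6 and 20.6 CPM, and Afp, the fetal serum protein, at 9.1, 15.3 and 13.8 CPM, with 0 in both embryonic libraries. The list summed to 360.0 to 454.3 CPM against 50.4 to 55.6 CPM. Among 11 cardiac genes 5 were higher (45.5%), the factors Tbx20, Gata4 and Gata6 and the channels Ryr2 and Hcn4. Gata4 and Gata6 are also in the endoderm list and are counted in both. The sarcomere genes Tnnt2, Tnni1, Tnni3, Tnnc1 and Actc1, named after their values were seen, were not called. Of 14 neural genes 9 were higher (64.3%) and 1 (7.14%), Dcx, lower (−4.56 ± 0.15). Of 12 genes of intermediate and paraxial mesoderm 5 were higher (41.7%), led by Tcf21, and 4 lower (33.3%). Over all genes tested 14.3% were higher and 6.72% lower. How many cells carried these transcripts was not tested.

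The remaining extremes over all genes included markers of the cell line. Hprt, the purine salvage enzyme whose gene is known to be disrupted in the E14tg2a line from which EB5 was derived, was at 1.62, 0.697 and 1.64 CPM against 65.8 and 54.6 CPM (−5.10 ± 0.22, adjusted p = 3.2e-19). Xist, the RNA of the inactive X chromosome, was at 0.249, 0.976 and 0.586 CPM against 218 and 93.4 CPM (−7.07 ± 0.47, and −6.46 without E10.5 HLB replicate 1 and −7.68 without replicate 3), and Tsix overlaps it on the other strand. Of the Y-linked genes, Ddx3y was at 65, 70.5 and 75.8 CPM against 29.1 and 43.4 CPM (0.97 ± 0.16, not called), and Kdm5d alone was lower (−1.43 ± 0.15). The E10.5 HLB libraries thus held both Xist and Y-linked RNA, and the ES–HLB libraries Y-linked RNA with Xist near the floor.

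Thy1, a surface glycoprotein of fibroblasts and neurons, was at 70.7, 69.3 and 67.6 CPM against 0.183 and 0.354 CPM (6.51 ± 0.16). Trh, Nfix and Fgf15 completed the 10 largest rises, with 5.63, 5.62 and 5.51. Aplnr, a receptor of vessels and early mesoderm, was at 2, 1.53 and 0.937 CPM against 57.1 and 66.6 CPM, 41.6-fold lower. The non-coding C130021I20Rik, next to Lmx1b, was at 4.86, 2.93 and 2.81 CPM against 169 and 173 CPM (−5.45 ± 0.16), and Hemgn, an erythroid gene, and Gm1821, annotated as a processed pseudogene whose reads could come from its parent gene, were the other 2 of the 10 largest falls not yet given.

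Chromosome 8 stood apart from the others as a whole. The median difference of its 711 tested genes was 0.48 above that of all genes tested, whereas the medians of the other autosomes and of X lay between −0.09 (chromosome 4) and 0.08 (chromosome 18). On chromosome 8, 79.6% of genes lay above the median of all genes. By library the value was 0.46, 0.49 and 0.50 in the 3 ES–HLB libraries. Split by position into 6 runs of 118 or 119 genes, its medians were 0.54, 0.57, 0.47, 0.45, 0.42 and 0.42, so that no run lay near 0. A ratio of 3 to 2 would be 0.58 on the log2 scale. DNA copy number was not measured in these files.

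The same chromosome stood apart in the ES-derived forelimb cells, with 0.49 for ES–FLB against the E10.5 FLB, which are other libraries. Between the E10.5 HLB and the early HLB, both from embryos, it was at −0.01. Of the chromosome 8 genes, 149 (21.0%) were called higher and 22 (3.09%) lower, beside 14.3% and 6.72% over all genes. Hand2, Mt1, Mt2, Nfix, Hhip, Fgfr1, Jund and Cdh1, named above, lie on chromosome 8.

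**Figure D5:**
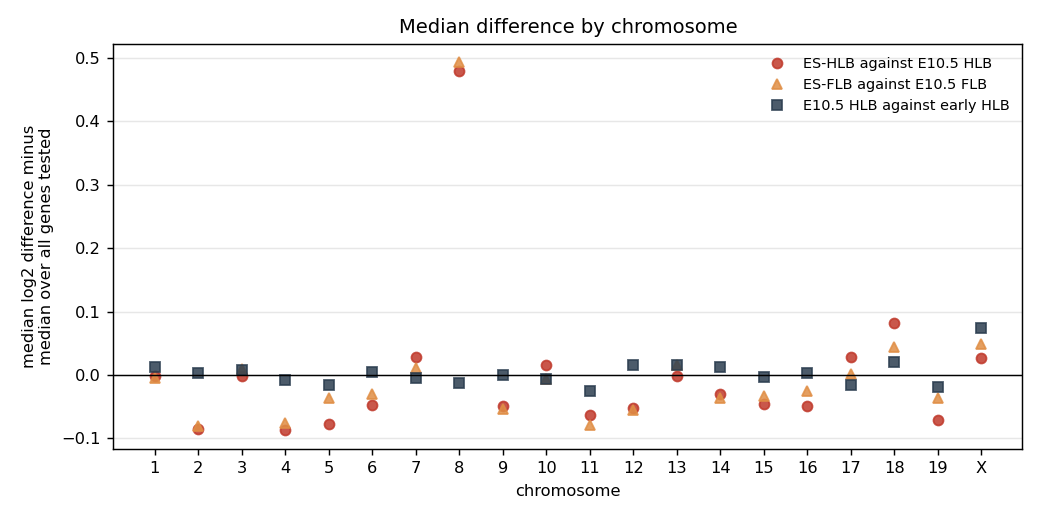
Median log2 difference of the genes on each chromosome minus the median over all genes tested, for ES–HLB against E10.5 HLB (red circles), ES–FLB against E10.5 FLB (orange triangles) and E10.5 HLB against early HLB (dark squares). Chromosome 8 lies at 0.48 and 0.49 in the ES-derived comparisons and at −0.01 between embryonic stages.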

How the data were processed

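Single-end stranded mRNA libraries had been mapped to mm10 with HISAT2 2.0.4 and counted with Cuffdiff, and edgeR 3.16.2 had been used, per the labels and the methods. The strand setting of the counting is not given in the sources used here. The authors deposited CPM, 1 value per gene and library for 23279 genes, which sum to 1000000 in each library and were not treated as counts here. The worth of 1 read was read from the spacing of low values and gave depth and floors, and floors cover counting error only, because PCR copies of a molecule are counted as reads.

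Libraries were scaled by an unweighted trimmed mean of log ratios (30% of ratios and 5% of intensities trimmed) over 26 libraries. Genes that reached 1 CPM in 2 or more of the 5 libraries compared were tested on log2(CPM + 0.5), which understates changes of low genes, with limma 3.58.1 (trend, robust) in R 4.3.3, with Benjamini-Hochberg adjustment over all genes tested. The dependence on limb type was fitted over 11 libraries. An exact permutation of 3 against 2 libraries has 10 splits and cannot go below p = 0.1 and was not used. On simulated data for this comparison 200 of 200 changed genes were recovered with 1 false call among 12543 tested. The simulation changed only genes well above the 1 CPM filter, by clearly more than 2-fold, equally often up and down. All its genes had the same added spread. It cannot show how well genes near the floor or near the fold limit are called. Tables and figures were made with Python 3.11.15, pandas 2.3.3 and matplotlib 3.10.9.

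Members and gene lists were chosen with earlier results of these data known. Named genes are, in each list, up to 4 called in each direction with the largest change at 5 CPM or more and the most abundant not called, the 10 largest changes in each direction over all genes at 16 CPM or more without overlap of libraries, and a fixed set of limb, tendon and imprinted genes; others are said to have been picked after their values were seen. A result that this rule would name is not reported here. Positions are from RefSeq on GRCm38.p6 (276 genes had none), overlaps from GENCODE on GRCm38, and promoter sequences from RefSeq. Alternatives were other scalings, filters, pseudocounts, variance models and call rules, replicate 2 of the E10.5 HLB added with its lost values missing, each replicate left out, and the replicate number as a block. The trimmed mean over the 5 libraries alone was added after seeing the data.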

Additional observations from a re-analysis of the deposited data

Results flagged for a closer look

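The difference from the embryo differed between hindlimb and forelimb for 6 of the 9 limb type genes, by limma's test of the difference itself (ES–HLB minus E10.5 HLB, minus ES–FLB minus E10.5 FLB, on the log2 scale). The values were −4.31 for Pitx1, −4.02 for Hoxc10, −3.16 for Hoxc9, −1.89 for Isl1, −1.78 for Hoxc11 and 3.58 for Tbx5. Pitx1, Hoxc9, Hoxc10 and Isl1 were above the embryo in ES–FLB, by 2.52, 1.87, 1.59 and 2.88. Hoxc11 was at 0.321 CPM in ES–FLB and at 0 in all E10.5 FLB libraries, so that only its hindlimb level had reads above the floor. Groups of 3 and 2 libraries are too small for the test of single outlying samples.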

How the results depend on the processing

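The counts of called genes were most sensitive to the call rule. With an adjusted p below 0.05 and no fold limit, 4604 genes were higher and 4982 lower, and with an adjusted p below 0.001 and no fold limit, 3445 and 3757. Under those rules (0.05, then 0.001) the lists gave, for higher members, mesenchyme factors 18 and 16, BMP 16 and 13, cartilage 14 and 13, hypoxia and glycolysis 15 and 10, amino acid stress 21 and 18, ectoderm 6 and 5, and, for 0.05 alone, retinoic acid 9. For lower members they gave mesenchyme factors 22 and 21, BMP 8 and 5, retinoic acid 6 and 6, cell cycle 36 and 36, and, for 0.05 alone, heterochronic 10 and ectoderm 23. A pseudocount of 2 left 3 higher retinoic acid genes, 5 higher neural genes, 2 higher genes of intermediate and paraxial mesoderm and 2 lower muscle precursor genes, and the requirement of 1 CPM in at least 3 libraries left 2 lower leukocyte genes and 2 lower genes of intermediate and paraxial mesoderm. CPM as deposited gave 5 lower cell cycle genes. The cause was not tested for any of these. With all libraries kept, the other counts stayed within 1.5 times the reported ones.

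With each library left out in turn, 1903 to 1976 genes were higher and 881 to 915 lower, lower retinoic acid genes numbered 3 to 5 (5 without E10.5 HLB replicate 1), and the chromosome 8 median was 0.48 to 0.49. A group left with 1 library was assumed to vary like the other. With the replicate number as a block 1901 genes were higher and 881 lower. The numbers are not known to pair samples, and deviations of same-numbered libraries had r of −0.0009 and 0.016. Under the block Fos (5.19, adjusted p = 0.157), Hmga1 (0.0706), Fkbp5 and Hoxc11 were no longer called and Laptm5 was. No direction of a named gene that was called turned under any alternative. Near 2-fold, Angptl4, Fkbp5, Hoxc11, Hoxc5, Cyp26a1, Lbx1 and H19 lost their call under 1 or more alternatives and Isl1, Ddx3y, Dsp, Pdgfra and Laptm5 gained one. Hmga1 was not called without ES–HLB replicate 2 or 3 or either E10.5 HLB library, and Kcnq1ot1 without E10.5 HLB replicate 3. Depth limits genes below about 0.5 CPM.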

Other observations

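The early HLB libraries (embryonic stage E10.0 in the labels, 3 libraries) give another embryonic level for the same genes. Their depth was 19642258 to 21001325 reads on genes, beside 5648234 to 7879877 in the 5 libraries compared. Its part in any difference between stages was not tested. Sources differ on their stage, and the figure legend of the study places them nearer to the later buds than the labels do. Of the 35 Hox genes tested, ES–HLB lay below the means of both stages for 25, above both for 5 and between them for 5. Of 46 mesenchyme factors it lay above both for 18, below both for 17 and between for 11. Hoxd12, which was at 16.6 CPM in the early HLB, was at 48.2 and 56.2 CPM in the E10.5 HLB and at 6.48, 5.71 and 5.39 CPM in ES–HLB. Cyp26b1 was at 65.6 CPM in the early HLB, below the E10.5 HLB and above ES–HLB, whereas Rarb was at 76.1 CPM in the early HLB and above both. Osr1 was at 3.38 CPM in the early HLB, so that its level was higher in the E10.5 HLB and higher again in ES–HLB. These are means set side by side, with no test of position between the stages.

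Pmaip1, a p53 target, was at 3.72 CPM in the early HLB, 57.7 and 57.9 CPM in the E10.5 HLB and 9.1 to 11.1 CPM in ES–HLB. Dcx was at 15.1 CPM in the early HLB, at 81.7 and 79.7 CPM in the E10.5 HLB and at 2.62, 2.93 and 3.28 CPM in ES–HLB.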
